A study of Danio rerio with 5 samples.

Results

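The liver exports a set of carrier proteins into the plasma that bind metals, heme, hormones, mineral or hyaluronan, and their genes are standard markers of hepatocytes. The genes described here are 10 liver-enriched secreted protein genes of zebrafish (Danio rerio), called carrier genes below. They were measured in whole embryos at 14 h post fertilization, a stage without a liver bud. The 10 genes were leg1.1, leg1.2, ahsg1, ttr, tfa, cp, itih3a.1, itih2, ambp and hpx. The leg1 genes encode secreted proteins needed for liver growth and are grouped with the carriers here, but no cargo is given for them. Of the 10, 7 were matched to probes on the array, 17 probes in all among 43603, and all 7 were among the 10791 genes tested. Only 58.7% of probes could be given a gene name, so a gene without a match may still have a probe. No probe was matched to tfa, itih2 or hpx (now named hpxa), the genes of transferrin, an inter-alpha-trypsin inhibitor heavy chain and the heme binder hemopexin, and these 3 are not analysed here. The 10 genes were picked with the difference between the groups of this study already known, so their own differences are given as description and not as tests.

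Each embryo received 1 nl of solution at the 1-cell stage. It held morpholinos, which are synthetic antisense molecules that keep an RNA from being translated or spliced. The gata5/6 morpholino embryos (2 arrays) received 6.25 ng against gata5 and 1.25 ng against gata6, and the control embryos (3 arrays) received 7.5 ng of a control morpholino. The targets encode GATA zinc-finger transcription factors of heart and gut, and per the labels gata4 is also reduced by this combination, so the study asked what follows when all 3 factors are low. Total RNA of whole embryos was hybridised to 1-colour Agilent arrays. The labels name no strain and do not say how many embryos were pooled or whether the arrays of a group hold RNA of different clutches. The p-values below therefore rest on the spread among these arrays, which may be technical.

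The gata4 gene, against which no morpholino was injected, was lower after gata5/6 morpholino (log2 change -0.64, adjusted p = 0.00519). The targeted genes gata5 (1.98, adjusted p = 0.000191) and gata6 (2.85, adjusted p = 5.76e-05) were higher. RNA of a morpholino target need not drop, and the labels do not state which step was blocked, so the last 2 values do not check the injection. On each array 70.1% to 71.1% of probes were well above background and none was saturated. Both gata5/6 morpholino arrays lay on slide 2 and scan 2 and all 3 control arrays on slide 1 and scan 1, so slide and group cannot be told apart. The gata5/6 morpholino arrays correlated with each other at 0.988 across probes and the control arrays at 0.994 for each pair. Signals below are log2 values relative to the 75th percentile of the array's own non-control probes, so 0 means as bright as that percentile. They describe 1 probe at a time and do not rank genes by abundance.

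Embryos reach this stage without hepatocytes, and in zebrafish the yolk syncytial layer, a nucleated layer around the yolk, expresses several genes that the liver takes over later, including those of transferrin and ceruloplasmin. Leg1 proteins are secreted proteins needed for liver growth in zebrafish. In mammals, fetuin-A (the product of AHSG) binds calcium phosphate, and inter-alpha-trypsin inhibitor joins heavy chains (ITIH genes) to bikunin, a light chain cut from the AMBP precursor, and passes the heavy chains to hyaluronan. Ceruloplasmin carries copper and oxidises iron, and transthyretin carries thyroid hormone and the retinol-binding protein.

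The 7 measured genes differed widely in size. Relative to control embryos, leg1.1, leg1.2 and ahsg1 were 17.4-fold to 19.2-fold brighter in gata5/6 morpholino embryos and itih3a.1 was 6.17-fold brighter. The other 3 genes were closer to control, with ambp at 1.36-fold, cp at 1.75-fold and ttr at 0.534-fold. The cp and ttr probes were below the background threshold on 1 array each, and their log2 changes were 0.25 and -0.05 with normexp background correction refitted without spots below their local background. Higher values were seen in gata5/6 morpholino embryos with 16 of the 17 probes, and the single probe for ttr was the exception. For all 17 probes the gata5/6 morpholino arrays did not overlap with the control arrays. These counts include 4 probes above background on no control array, of which a cp probe was so on no array at all. Among all genes tested, at 1 probe per gene, 29.0% had both gata5/6 morpholino arrays above every control array and 21.8% had both below. No such share was computed over probes. In a limma fit across all genes, 5 of the 7 genes were higher at a Benjamini-Hochberg adjusted p under 0.05, against 7.84% of all genes, and none was lower, against 7.17%. A log2 change of at least 1 was seen for 4 of the 7, against 2.97% of all genes, and of at least 2 for the same 4, against 1.07%. Since the genes were chosen on this difference, nothing is read from these counts. In whole-embryo RNA, more cells of a type and more RNA per cell cannot be told apart.

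**Figure D1:**
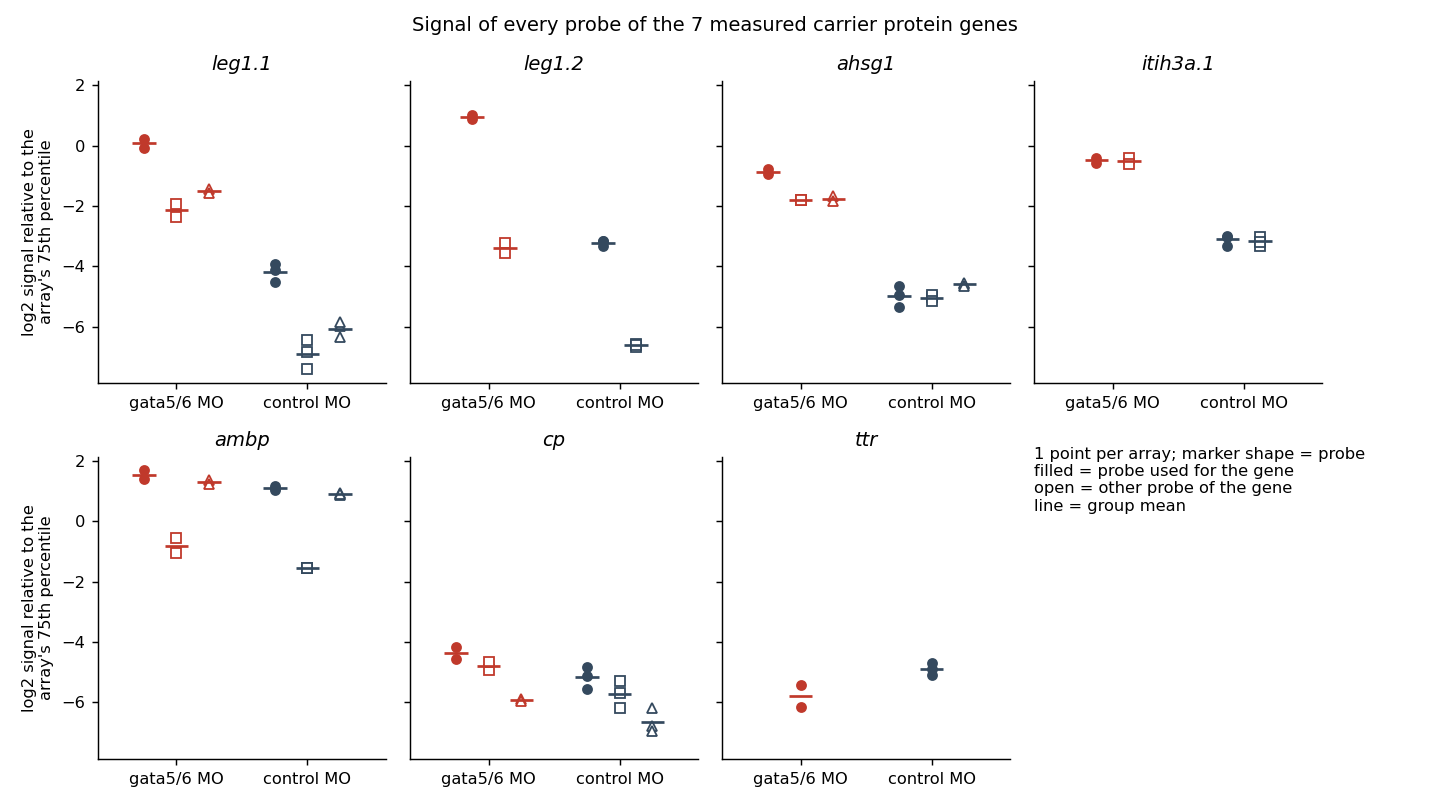
Log2 signal (vertical axis, relative to each array's 75th percentile) of every probe in each gata5/6 morpholino array (red, left) and control array (dark blue, right), with a panel per gene and a line at each group mean. The groups lie 4.26 apart for the filled leg1.1 probe and 0.45 apart for the filled ambp probe. Compared within the same probe, ttr is the only panel in which the red points lie below the dark blue ones.

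The leg1 genes, which are close copies of each other and neighbours on chromosome 20 in the RefSeq annotation, gave the widest separation. The probe used for leg1.1 had log2 signals of 0.24 and -0.09 on the gata5/6 morpholino arrays, against -4.12, -4.52 and -3.93 on the control arrays. The group means were 0.07 ± 0.23 (SD, n = 2) and -4.19 ± 0.30 (SD, n = 3), a difference of 4.26 (SE 0.199). All gata5/6 morpholino values were far above all control values, and the gap between the groups was many times the range within either. For leg1.2 the log2 signals were 1.03 and 0.88 on gata5/6 morpholino arrays, against -3.17, -3.34 and -3.15 on control arrays. Its means were 0.96 ± 0.11 (SD, n = 2) and -3.22 ± 0.10 (SD, n = 3), and the difference was 4.18 (SE 0.104). The replicates of leg1.2 were tighter than those of leg1.1 in both groups, and the differences of the copies lay within 1 SE of the leg1.1 fit. Whether a probe of one copy also binds RNA of the other was not tested, because probe sequences are not given in the sources used here.

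Other probes of the leg1 genes were dim in control embryos. Both further leg1.1 probes were well above background on both gata5/6 morpholino arrays and on no control array, so only bounds on the fold can be given. The first was at least 17.5-fold brighter in gata5/6 morpholino embryos (measured means -1.51 and -6.07) and the second at least 11.2-fold (-2.15 and -6.89). The second leg1.2 probe was likewise above background only after gata5/6 morpholino, and was at least 4.76-fold brighter (-3.39 and -6.62). These 3 probes entered the fit through the group in which they were bright, so their difference was in part required by the filter.

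The fetuin gene ahsg1 followed the leg1 genes. The probe used had log2 signals of -0.79 and -0.95 on the gata5/6 morpholino arrays, against -4.94, -4.66 and -5.36 on the control arrays. Its means were -0.87 ± 0.11 (SD, n = 2) and -4.99 ± 0.35 (SD, n = 3), with a difference of 4.12 (SE 0.207). In control embryos this probe had intensities of 13.6 to 22.7 units, close to the lowest intensities called well above background on those arrays (10.8 to 12.3), and yet it counted as above background on all 3. The other ahsg1 probes gave smaller differences of 3.25 and 2.84, or 9.55-fold and 7.16-fold, also without overlap. The ahsg1 probes thus spanned 1.28 log2 units among themselves, the widest spread between probes of the 6 genes with more than 1 probe, and all 3 put the gata5/6 morpholino embryos above control.

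The inter-alpha-trypsin inhibitor genes parted in size. The heavy chain gene itih3a.1 had log2 signals of -0.40 and -0.57 on the gata5/6 morpholino arrays, against -2.98, -3.03 and -3.32 on the control arrays. The means were -0.48 ± 0.12 (SD, n = 2) and -3.11 ± 0.18 (SD, n = 3), a difference of 2.63 (SE 0.132). Its second probe gave 2.66, so the 2 probes differed by 0.04 log2 units, the smallest spread between probes among these genes. The ambp gene, which encodes the precursor of the light chain bikunin and of the lipocalin alpha-1-microglobulin, was bright in both groups. Its log2 signals were 1.69 and 1.41 on the gata5/6 morpholino arrays, against 1.05, 1.1 and 1.16 on the control arrays. The means were 1.55 ± 0.20 (SD, n = 2) and 1.1 ± 0.05 (SD, n = 3), and the difference was 0.45 (SE 0.111), beside a gap of 0.28 between the gata5/6 morpholino arrays. The other ambp probes gave 0.74 and 0.41. Of the 5 genes counted as higher, ambp did not pass with quantile normalization, with the authors' values, with no filter, with a variance for each group or with the replicate block. It also did not pass without control replicate 1, 2 or 3 or without gata5/6 morpholino replicate 1.

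The ceruloplasmin gene cp and the transthyretin gene ttr were dim in both groups. For cp the log2 signals were -4.56 and -4.15 on the gata5/6 morpholino arrays, against -5.12, -4.82 and -5.55 on the control arrays, and the probe was above background on 2 of the 3 control arrays. The means were -4.35 ± 0.29 (SD, n = 2) and -5.17 ± 0.37 (SD, n = 3), and the difference was 0.81 (SE 0.237). The groups did not overlap, but the nearest arrays were closer to each other than the control arrays were among themselves. A second probe, above background on 1 of the 3 control arrays, gave 0.92. The last one was well above background on no array, and no difference is read from it. For ttr the log2 signals were -5.41 and -6.17 on the gata5/6 morpholino arrays, against -4.88, -5.08 and -4.68 on the control arrays. The means were -5.79 ± 0.54 (SD, n = 2) and -4.88 ± 0.20 (SD, n = 3), and the difference was -0.91 (SE 0.240). The probe was above background on replicate 1 alone after gata5/6 morpholino and on all 3 control arrays. This is the one measured gene of the group that was lower after gata5/6 morpholino, at intensities of 7.83 and 11.9 units against 17.0 to 21.8 units. Neither cp nor ttr passed in the fit across all genes. Both cp probes in the fit entered it through the gata5/6 morpholino group alone, and the ttr probe through the control group alone. The directions of these differences were thus in part favoured by the filter. With the replicate block, which leaves 1 residual degree of freedom, cp counted as higher and ttr as lower. The ttr change was -1.28 without gata5/6 morpholino replicate 1, which keeps the array on which it was below background, and -0.53 without replicate 2.

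**Figure D2:**
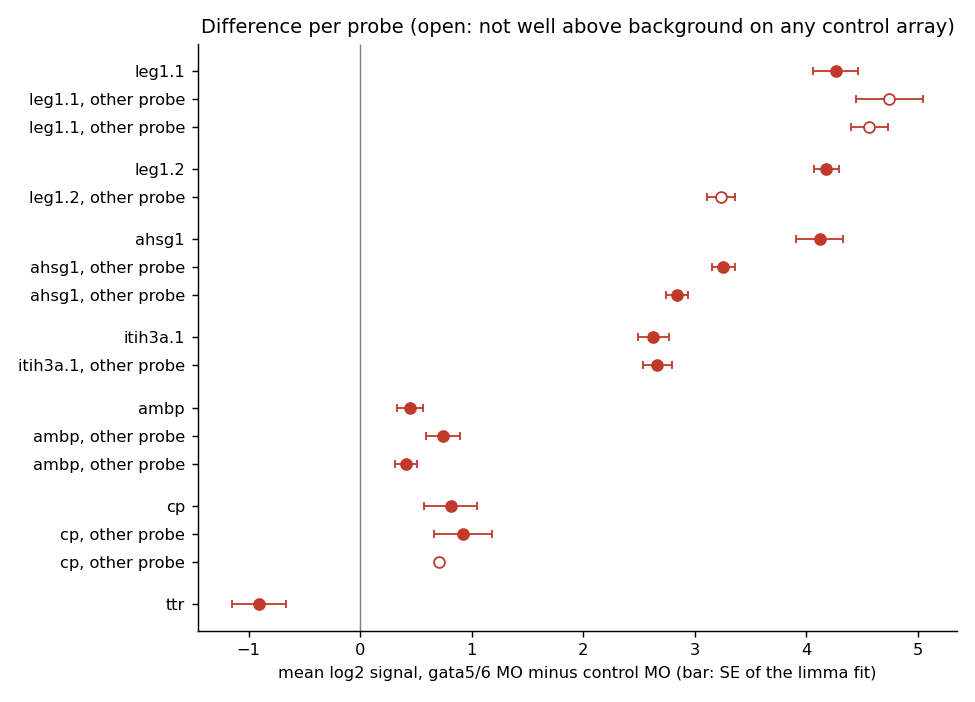
Difference in mean log2 signal (horizontal axis, gata5/6 morpholino minus control) of each of the 17 probes, with the SE of the limma fit as a bar where the probe entered the fit. Open points mark the 4 probes below the background threshold on all control arrays, and the points run from -0.91 for ttr to 4.74 for a leg1.1 probe.

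The gap between the gata5/6 morpholino arrays varied among these genes. Replicate 1 exceeded replicate 2 by 0.32 log2 units for leg1.1, by 0.28 for ambp and by 0.15 to 0.17 for leg1.2, ahsg1 and itih3a.1, whereas the median size of this gap over all genes tested was 0.24. The gap was widest for ttr, at 0.76, and 96.7% of genes had a smaller one. For cp the order was the other way, with replicate 1 lower by 0.41. The relative error that the scanner software gave to a spot was at most 11.8% on gata5/6 morpholino arrays for the leg1 probes. On control arrays it was at most 14.7% for the probes used for leg1.1 and leg1.2. It reached 92.4% among the leg1 probes above background on no control array, whose folds are given as bounds. The brightness in control embryos was thus the less certain end of the leg1 folds, mainly for these bounds.

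The size of the differences varied with background correction. With normexp correction refitted without spots below their local background, chosen after seeing the data, the log2 differences were 2.79 for leg1.1, 3.25 for leg1.2, 2.30 for ahsg1 and 1.89 for itih3a.1. These are smaller folds than above, and the correction adds an offset of 50, which by construction pulls differences of dim probes toward 0. The cp difference was then 0.25 and the ttr difference -0.05, while ambp stayed at 0.43. With the default normexp fit none of the 7 passed in either direction, 5 had an unadjusted p under 0.05, and cp was lower (-0.28).

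**Figure D3:**
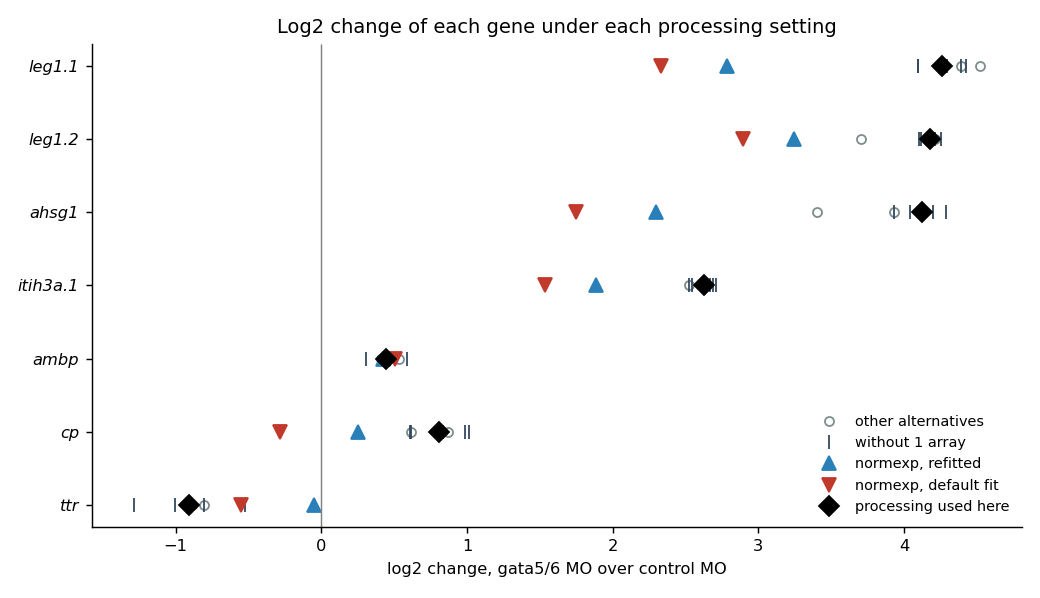
Log2 change (horizontal axis, gata5/6 morpholino over control) of each measured gene under the processing used here (diamond) and under each alternative. The values of leg1.1, leg1.2, ahsg1 and itih3a.1 lie between 1.53 and 4.52 in every setting tried, those of ambp between 0.31 and 0.59, and those of cp and ttr reach across or close to 0 with normexp.

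A further 5 lists of related genes, none of which includes the genes above, were set beside them. These lists too were chosen with earlier results of these data known. Their counts and adjusted p-values are given as description and are no independent support. Over all genes tested, 15.0% passed in either direction and the median log2 change was 0.04. Of the 31 other secreted carrier and binding protein genes listed, 12 were tested. Of these, 1 rose, 2 fell and 9 did not pass (median 0.39). The fallen genes encode insulin-like growth factor binding proteins. The igfbp2a signal was 0.61 ± 0.08 (SD, n = 2) after gata5/6 morpholino and 1.52 ± 0.07 (SD, n = 3) in controls (log2 change -0.91, SE 0.0911, adjusted p = 0.00226), and igfbp1b changed by -0.87 (adjusted p = 0.00605, and 0.0845 with a variance for each group). The lipocalin gene lcn15 rose by 1.05 (adjusted p = 0.0299). It was above background on 2 of the 3 control arrays and entered the fit through the gata5/6 morpholino group, so the filter in part favoured a rise. The lcn15 call was lost without control replicate 1, 2 or 3 (adjusted p of 0.0689 to 0.106). It was also lost with no filter, with either normexp fit and with a variance for each group. Without gata5/6 morpholino replicate 1 the lcn15 change was 0.71. The retinol-binding protein gene rbp4, whose product rides on transthyretin, had a log2 change of -0.91 that did not pass (adjusted p = 0.0649), with signals of 1.57 ± 0.62 (SD, n = 2) after gata5/6 morpholino and 2.48 ± 0.11 (SD, n = 3) in controls. The change was -1.35 without gata5/6 morpholino replicate 1 and -0.48 without replicate 2, so its size rested on which of these arrays was kept. The rbp4 change passed with eBayes trend and robust settings (adjusted p = 0.0423) and with the refitted normexp (0.0370). It did not pass with quantile normalization (0.0509), with a variance for each group (0.124) or without any 1 control array (0.137 to 0.192). The fetuin relative ahsg2 and the vitamin D carrier gene gc had probes but were not well above background throughout either group.

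Genes that take up, move or use the carriers' cargo went both ways. Of 35 listed, 18 were tested, of which 4 rose, 3 fell and 11 did not pass (median -0.07). The deiodinase gene dio2, whose enzyme activates thyroid hormone, was at least 2.45-fold higher after gata5/6 morpholino in the processing used here. It was not well above background in any control (measured means -4.35 after gata5/6 morpholino and -7.67 in controls, adjusted p = 0.000162). The gene entered the fit through the group in which it was bright, so its difference was in part required by the filter. Its log2 change was 0.63 with the refitted normexp and 0.008 with the default normexp, both below that bound. The transferrin receptor gene tfr2 was higher by 1.55 (SE 0.135), or 2.94-fold (adjusted p = 0.00135), with signals of -2.47 ± 0.06 (SD, n = 2) and -4.02 ± 0.20 (SD, n = 3), and the refitted normexp gave 0.85. The hyaluronan synthase gene has2 was 1.74-fold higher (log2 change 0.80, adjusted p = 0.00300), and the mean over its probes gave a smaller change of 0.46 (adjusted p = 0.0241). The gene of the iron exporter ferroportin, slc40a1, fell by 0.51 on the log2 scale (adjusted p = 0.0135), and this call was lost without any 1 control array (adjusted p of 0.0626 to 0.0858) and with a variance for each group (0.105).

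Other liver-enriched plasma protein genes were mostly higher. Of 29 listed, 24 were tested, of which 19 rose, 3 fell and 2 did not pass, and the median log2 change was 1.19. The 3 that fell were all apolipoprotein genes (apoa1a, apoea and apobb.1). Of the 4 apolipoprotein genes tested in this list, apoa2 rose 1.61-fold (adjusted p = 0.0479). Of the 20 tested genes other than apolipoproteins, a split made after the values were seen, 18 rose and none fell (median 1.39). The vitronectin gene vtnb rose 9.57-fold (log2 change 3.26, SE 0.0831, adjusted p = 4.11e-05), with signals of 1.07 ± 0.05 (SD, n = 2) after gata5/6 morpholino and -2.19 ± 0.04 (SD, n = 3) in controls. The fibrinogen chain genes fga and fgb rose 10.3-fold and 7.58-fold (adjusted p = 5.76e-05 and 0.000103). The gene of the complement regulator factor H, cfh, rose 4.83-fold (adjusted p = 8.14e-05).

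Genes of the liver bud and digestive endoderm did not follow as a list. Of 29 listed, 25 were tested, of which 6 rose, 4 fell and 15 did not pass (median 0.08). The glucose-6-phosphatase gene g6pc1a.1 fell, with a log2 change of -1.72 (SE 0.0946, adjusted p = 0.000287), as did the factor gene onecut1 (-1.44, adjusted p = 0.00440). The tyrosine breakdown gene fah rose by 1.23 (adjusted p = 0.000962), and with the refitted normexp the change was 0.37. It was above background on 1 of the 3 control arrays and entered the fit through the gata5/6 morpholino group, so the filter in part favoured a rise. The hepatocyte fatty acid binding protein gene fabp10a rose by 0.71 (adjusted p = 0.00764), a call lost with the mean over its probes (0.0549), with the refitted normexp (0.0523) and with a variance for each group (0.0504). The early liver factor gene hhex rose by 0.55 (adjusted p = 0.00882) and prox1a fell by 0.58 (adjusted p = 0.0128). Both calls, and that of hnf4a (0.62, adjusted p = 0.0192), were lost without control replicate 1, 2 or 3 (adjusted p of 0.0504 to 0.0909) and with a variance for each group. With the refitted normexp, prox1a (-0.24, adjusted p = 0.0585) and hnf4a (0.29, adjusted p = 0.0624) did not pass either.

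Of the 20 yolk syncytial layer genes listed, 15 were tested, of which 3 rose, 8 fell and 4 did not pass (median -0.42). The genes that rose were scarb1, hnf4a and mxtx1. Those that fell were apolipoprotein genes, apart from fabp2 and slc40a1. The gene of the intestinal fatty acid binding protein, fabp2, fell by 2.68 (SE 0.121, adjusted p = 0.000147), with signals of 4.25 ± 0.25 (SD, n = 2) after gata5/6 morpholino and 6.94 ± 0.02 (SD, n = 3) in controls. The apolipoprotein genes apoa4a, apoa4b.1 and apoa4b.2 fell too, with log2 changes of -3.92, -1.55 and -1.79 (adjusted p = 0.000357, 0.000982 and 0.00103). The plasma list shares 3 tested genes with this list, the liver list 3 and the cargo list 1.

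**Figure D4:**
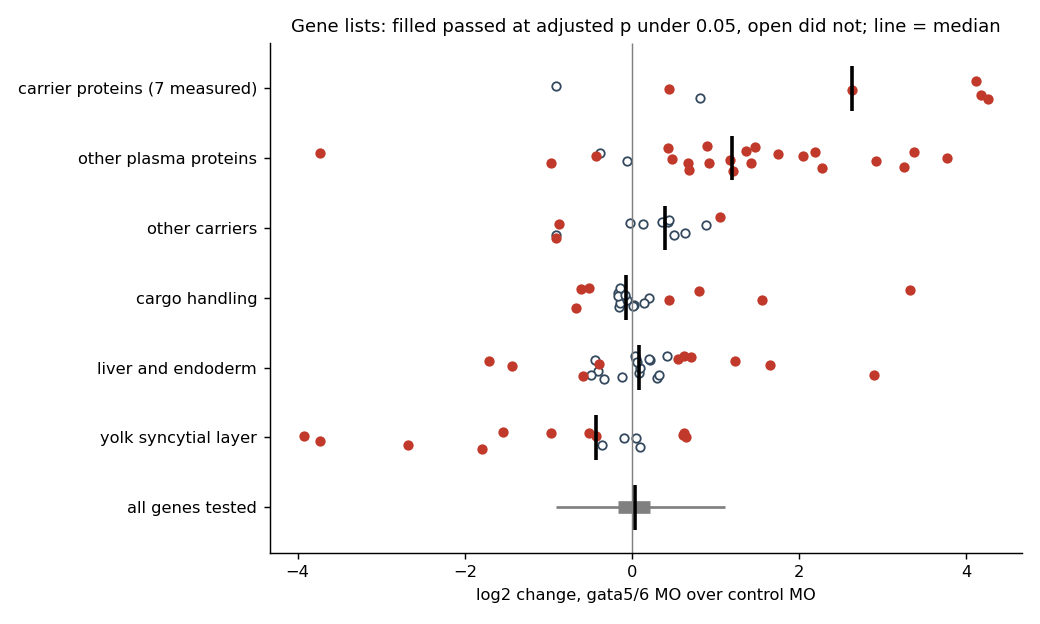
Log2 change (horizontal axis, gata5/6 morpholino over control) of each tested gene, with a row per list, the 7 measured carrier genes on top as a description and all genes tested at the bottom (thick line, quartiles, from -0.16 to 0.22, and thin line, from -0.91 to 1.11, without the outermost 2.5% on each side). Filled points passed. The black medians are 2.63 for the 7 genes, 1.19 for other plasma proteins, -0.42 for yolk syncytial layer genes and 0.04 for all genes.

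Cell type markers gave the following levels. Of 5 yolk syncytial layer markers, 4 were tested, and their summed signal, in multiples of the 75th percentile, was 82.4 to 90.5 on gata5/6 morpholino arrays and 113 to 117 on control arrays, a sum dominated by apobb.1. Their mean log2 signal was 1.18 to 1.24 and 1.05 to 1.12, the other way round. The factor gene mxtx1 rose by 0.64 (adjusted p = 0.0235), and mxtx2 passed the background threshold on no gata5/6 morpholino array and on 1 control array. Of 5 hepatocyte markers, 3 were tested, with summed signals of 10.9 to 14.5 on gata5/6 morpholino arrays and 11.9 to 12.2 on control arrays, a sum dominated by uox, and gc was above background on no array. Their mean log2 signal was -1.82 to -1.57 on gata5/6 morpholino arrays and -2.40 to -2.31 on control arrays, and fabp10a and fah were the markers that rose. Of 5 endoderm markers, 4 were tested, with summed signals of 11.9 to 12.5 on gata5/6 morpholino arrays and 10.8 to 11.5 on control arrays. Their mean log2 signal was 0.53 to 0.61 and -0.12 to 0.27, and sox32 was the only one of them that passed. Markers of somite muscle, notochord and neural tube were well above background in both groups except the notochord gene col9a1a, which was so on no array, and none of those tested passed. Of 3 epidermal markers tp63 fell by 0.47 (adjusted p = 0.0491). The part of any of these cell types in the differences of the carrier genes was not tested.

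Among named genes outside the 10, the profile over the 5 arrays closest to the mean profile of the 7 carrier genes was that of ftcd, which encodes a liver enzyme of histidine and folate metabolism. The measure was the root mean square distance between log2 signals centred on each gene's own mean, and it was 0.07 for ftcd. The next were sat2b (0.08), the glucuronosyltransferase gene ugt5e1 (0.09), cfh (0.09), the organic cation transporter gene slc22a4 (0.10) and the fibrinogen gene fgg (0.11). Of the carrier genes themselves, itih3a.1 lay closest to their mean, at 0.21, and ttr farthest, at 1.55. The distances of cp, ambp, ahsg1, leg1.2 and leg1.1 were 0.74 to 1.02. Every carrier gene thus lay farther from the mean profile than these 6 genes, and that mean describes few carrier genes well. Such a distance over 5 arrays mostly reflects the size of the group difference, which was 2.05 to 2.35 for these 6 genes. With the refitted normexp the log2 changes were 0.84 for slc22a4, 1.09 for ugt5e1 and 1.34 for sat2b. They were 1.84 for cfh and fgg and 1.99 for ftcd.

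The genes next to the carrier genes were looked up after the values were seen. Within 3 protein-coding genes on either side of each measured carrier gene in the RefSeq annotation there were 36 other genes, 16 of them tested, of which 1 rose, 2 fell and 13 did not pass. Over all genes tested, 7.84% rose and 7.17% fell, so nothing about these positions is read from the counts or from the genes named next. The gene beside leg1.2, mmachc, which acts in vitamin B12 metabolism, had a log2 change of 0.12 (adjusted p = 0.585). The thyrotropin receptor gene tshr, near ttr, rose by 0.42 (adjusted p = 0.0279), and hps3 and elavl2, near cp, fell by 0.76 and 0.90 (adjusted p = 0.0147 and 0.0211). Between hps3 and elavl2, a gene known only by a clone-based placeholder had a log2 change of 1.08 that did not pass (adjusted p = 0.0979), larger than that of cp. Near ambp, the fatty acid transporter gene slc27a4 had -0.69 (adjusted p = 0.110). No probe was matched to itih3a.2, beside itih3a.1, or to fetub, beside ahsg1, so these relatives are not analysed here.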

How the data were processed

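Total RNA of whole embryos was measured on 5 arrays. Spots were quantified with Agilent Feature Extraction 10.7.3.1 per the file headers, or 10.7.1.1 per the submitters' processing notes. The deposited processed intensity is background-subtracted, detrended and unscaled between arrays, per the file headers. The deposited value table holds log2 values whose sorted columns differed by at most 0.000844, with medians of 6.09, and which had a correlation of at least 0.9998 with the values below. How the authors made it is not given here.

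Each array's 75th percentile (506 to 574 intensity units) was subtracted on the log2 scale. Control spots and 52 probes with an outlier spot were left out. Kept probes were well above background throughout 1 group or both. Names came from unversioned accessions through the RefSeq table of GRCz12tu, for names, chromosomes and neighbours alone (25598 of 43603 probes, 58.7%). Genes take the values of their brightest probe over the 5 arrays. The comparison used lmFit and eBayes of limma 3.58.1 (R 4.3.3) with 3 residual degrees of freedom, two-sided, and the threshold was a Benjamini-Hochberg adjusted p under 0.05. Where 1 group was below background throughout, the fold is a bound, which holds for this background correction alone. It is the brighter group's mean over the dim group's mean, in which no array counts below its lowest signal well above background. The procedure was tested on simulated data.

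The 10 genes and the lists were chosen with earlier results of these data known. The genes named were the 10, per list the 4 genes of smallest adjusted p, hhex, prox1a, fabp10a, mxtx2 and hnf4a, the genes gata4, gata5 and gata6, and the 6 closest profiles. Others are named as counts of 5 or fewer, as list members not measured, or after their values were seen. Alternatives were normexp (offset 50, on the median signals), quantile normalization, the authors' values, 2 other filters, the mean over probes, eBayes with trend and robust settings, a replicate block and each array left out. A refitted normexp and a variance for each group (limma array weights) were chosen after seeing the data. The slide could not be fitted as a block, since each slide holds 1 group. Precision is limited by the number of arrays.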

Additional observations from a re-analysis of the deposited data

How the results depend on the processing

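Direction and side of the threshold held in 407 of 462 comparisons of a tested named gene with an alternative, 46 lost and 5 gained a call, and 4 changed direction, all with the default normexp: lcn15 (-0.27), fah (-0.19), fabp10a (-0.25) and hnf4a (-0.078). That fit gave 19 genes higher and 23 lower in place of 846 and 774 (687 at an unadjusted p under 0.05), with a median of 1.53 over the carrier genes and 0 of them higher. It passed 0 genes of the other carrier, cargo and liver lists, 4 plasma protein genes and 2 yolk syncytial layer genes. Control replicate 3 holds 5 spots below their local background, the lowest at -11992.5 units, and the fitted background mean of that array was -243 units with these spots and 8.13 without them. The refitted normexp kept the counts within 1.5 times and gave a median of 1.89 over the carrier genes. Over probes above background on all 5 arrays that median was 4.12, since cp and ttr leave the set. With a variance for each group, 290 genes were higher and 257 lower, and 1 other carrier, 3 cargo, 3 liver and 7 yolk syncytial layer genes passed.

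Without 1 gata5/6 morpholino array the other is assumed to vary like the control arrays, which alone give the spread. Leaving out 1 array at a time gave 371 to 3114 genes higher and 314 to 2165 lower, with both highest counts without gata5/6 morpholino replicate 2 and both lowest without control replicate 3. The median over the carrier genes was then 2.52 to 2.71, and 4 to 5 of them were higher. The other carrier list had 2 to 10 genes passing (3 with all arrays), the cargo list 3 to 13 (7), the plasma list 16 to 22 (22), the liver list 5 to 12 (10) and the yolk syncytial layer list 6 to 12 (11). For the other carrier and cargo lists the highest counts came without gata5/6 morpholino replicate 2, and for the cargo, liver and yolk syncytial layer lists each control array left out lowered the count by over 1.5 times. Arrays share only a replicate number, and deviations of same-numbered arrays correlated at 0.122 and 0.199. Control replicate 3 has no partner, so the replicate block in effect drops it and leaves 1 residual degree of freedom. With it 938 genes were higher and 849 lower, and 7 other carrier genes passed. Its changes equal those without control replicate 3 (rbp4 -0.94 in both), where the adjusted p of rbp4 was 0.161, against 2.92e-05 with the block. Signal over background limits what can be said of ttr, of cp and of the leg1 and ahsg1 levels in control embryos.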

Other observations

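Further genes of the liver list moved in gata5/6 morpholino embryos. The bile acid receptor gene nr1h4 was at least 2.34-fold higher and not well above background in any control embryo (measured means -4.41 and -7.31, adjusted p = 0.00839), a difference in part required by the filter. The endoderm factor gene sox32 was higher by 1.66 on the log2 scale (adjusted p = 0.0435). Its control signals were dim and spread widely (-4.72 ± 0.73, SD, n = 3, beside -3.06 ± 0.06, SD, n = 2, after gata5/6 morpholino). Values of nr1h4 and sox32 under the alternative settings are not given here. The pan-endodermal forkhead genes foxa1, foxa2 and foxa3 had log2 changes of 0.22, 0.08 and 0.20 that did not pass (adjusted p = 0.148, 0.529 and 0.353). The urate oxidase gene uox did not pass either (0.06, adjusted p = 0.798).

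Of the coagulation genes in the plasma list, f7 had the largest rise of that list, 13.6-fold (adjusted p = 0.000147), and f10 was 3.36-fold higher (adjusted p = 0.00140). Both were above background on all 3 control arrays but dim there (means -5.09 and -5.14), as ahsg1 was. The size of these folds thus rests on dim control signals, and their values under other background corrections are not given here. The prothrombin gene f2 and the antithrombin gene serpinc1, with the heparin cofactor gene serpind1, had smaller values of 0.90 (adjusted p = 0.00268), 0.67 (adjusted p = 0.0120) and -0.06 (adjusted p = 0.727). These genes were named after their values were seen.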
